A study of Mus musculus with 8 samples.

Results

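BTB zinc finger genes encode transcription factors that carry a BTB (also called POZ) domain at one end and zinc fingers at the other. They were taken as the genes of the deposited table whose GENCODE M21 symbol is Zbtb followed by a number, Bcl6, Bcl6b, Hic1 or Hic2, and 44 of the 17488 listed genes met this description. Of these, Zbtb8os shares a symbol root and not the protein fold: it encodes an archease, a cofactor of tRNA ligation, and it is kept here by name. Another 2 symbols of the annotation that meet the description, Zbtb9 and Zbtb11os1, were not analysed here.

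The zinc fingers of these proteins read DNA, and the BTB domain pairs protein chains and recruits corepressors such as NCoR and BCOR, which bring histone deacetylases to the bound gene. Well-studied members set lymphocyte fates (Bcl6, Zbtb7b, Zbtb16), restrain growth control genes (Hic1, Zbtb7a, Zbtb17) or bind methylated CpG (Zbtb33, Zbtb4, Zbtb38). Zbtb17, better known as MIZ1, is the partner through which MYC proteins repress some promoters, and MYCN is the oncogene of the tumours studied.

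RNA sequencing was performed on whole neuroblastomas from 8 mice, 1 library per animal. The treated animals (n = 4) received panobinostat, an inhibitor of the zinc-dependent histone deacetylases (HDACs), in 2 doses of 5 mg/kg given 24 h apart, and the control animals (n = 4) received vehicle. Tumours were collected 4 h after the second dose. The animals of both groups carried 2 copies of the TH-MYCN allele, in which the tyrosine hydroxylase promoter expresses human MYCN in the sympathetic lineage. Treatment of both groups started near 6 weeks of age, once ultrasound put the tumours at 200 to 300 mm3. Each library mixed tumour and stromal cells, so fewer cells of a type and less RNA per cell cannot be told apart. Summed over the listed genes, read totals ran from 18664066 to 22235545 in the panobinostat libraries and from 22055658 to 23830026 in the vehicle libraries. Levels are in log2 CPM, counts scaled to library size, where 1 CPM equalled 19.3 to 22.6 reads, and the differences given are panobinostat minus vehicle on the log2 scale. The labels name no batch or litter, so such a difference between the groups cannot be told apart from treatment.

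The marker genes of the tumours and their stroma frame every value that follows. All 10 noradrenergic tumour cell markers were tested, and their summed level was 1044 to 1211 CPM with panobinostat and 1976 to 2969 CPM with vehicle, with 6 of the 10 lower. Macrophage markers summed to 3086 to 5518 CPM with panobinostat and 640.4 to 1217 CPM with vehicle, with 9 of 10 higher. Fibroblast and mural cell markers summed to 8440 to 15297 CPM with panobinostat and 1529 to 4900 CPM with vehicle, with 10 of 10 higher. Adipocyte markers were higher for 6 of 6, although Lep, at 0 to 31 reads with vehicle, was tested through its panobinostat libraries. The adrenal cortex markers reached 39.6 to 2756 CPM in sum with panobinostat, against 9.21 to 11.4 CPM with vehicle. Hepatocyte markers summed to 214 to 8689 CPM with panobinostat, highest in tumours 3 (1043 CPM) and 4, against 8.22 to 115.9 CPM with vehicle. Pancreas acinar markers reached 2640 CPM in panobinostat tumour 4 and kidney tubule markers 769 CPM in panobinostat tumour 3, against at most 13.7 and 2.92 CPM with vehicle. The part of these shifts in the results below was not tested, except where a value is given beside a gene.

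For 43 genes at least 4 of the 8 libraries reached 1 CPM, the filter used, and of these 10 were higher and 19 lower with panobinostat at an adjusted p under 0.05 (limma, Benjamini-Hochberg over 16157 genes). Over all genes tested, 63.7% changed in either direction, 31.2% higher and 32.4% lower. Among the BTB zinc finger genes 23.3% were higher and 44.2% lower, with a median log2 change of -0.28, against -0.02 over all genes. In 11 genes the 4 panobinostat values lay wholly above the 4 vehicle values, and in 19 they lay wholly below, which happened in either direction for 59.7% of all genes tested. Changes of at least 2-fold among called genes numbered 7 upward (16.3% of the 43) and 9 downward (20.9%), against 20.7% upward and 13.5% downward over all genes tested. In a test against a 1.5-fold change, which 30.9% of all genes passed, 6 were higher and 9 lower. Other families give a scale for these shares. BTB-Kelch genes, which pair the same domain with Kelch repeats (symbol Klhl and a number), had 7 higher and 7 lower of 29 tested, and zinc finger genes named Zfp had 54 higher and 147 lower of 362 tested. No difference between the families was tested.

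Zbtb8b and Zbtb42 passed the filter through their panobinostat libraries, with 0 and 2 vehicle libraries at 1 CPM, so their place among the higher genes was partly fixed by the filter. Without them 8 of 41 were higher and 19 lower. Panobinostat values then lay wholly above vehicle values in 9, and 5 were higher by at least 2-fold. Zbtb8b and Zbtb42 are also among the 6 higher in the test against a 1.5-fold change. The remaining gene, Zbtb32, a regulator of lymphocyte activation, held 15 to 19 reads per panobinostat library and 14 to 18 reads per vehicle library and was not tested.

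**Figure D1:**
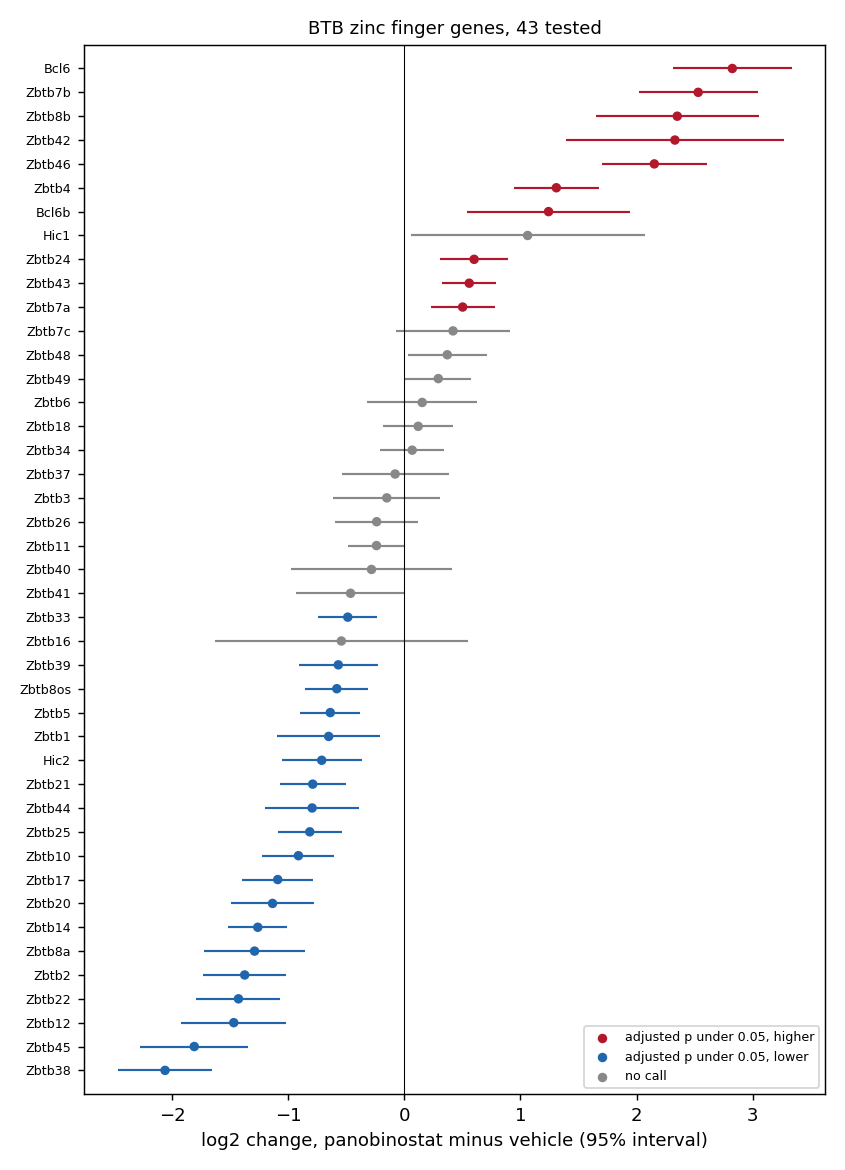
Log2 change of each of the 43 tested BTB zinc finger genes on the x axis (panobinostat minus vehicle, n = 4 each), with its 95% interval as a line, ordered by size. The 10 genes called higher reach 2.82 for Bcl6, and the 19 called lower reach -2.06 for Zbtb38.

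Start regions were available in RefSeq (build GRCm38.p6) for 38 of the 44 genes, as windows from 250 bases before to 50 bases after the start, 1 per gene. The windows of the 2 strongest increases and the 2 strongest decreases are shown, among called genes that reached 1 CPM in all 8 libraries and whose RefSeq start lies within 200 bases of the GENCODE start. They run in the direction of transcription, and capitals mark a GC box (GGGCGG), an E-box (CACGTG) or the spaced palindrome TTCNNNGAA, each searched on both strands. Bcl6 lies on the minus strand at chr16:23988803-23989102, Zbtb4 on the plus strand at chr11:69765662-69765961, Zbtb45 on the minus strand at chr7:13009803-13010102 and Zbtb2 on the minus strand at chr10:4388059-4388358.
Bcl6: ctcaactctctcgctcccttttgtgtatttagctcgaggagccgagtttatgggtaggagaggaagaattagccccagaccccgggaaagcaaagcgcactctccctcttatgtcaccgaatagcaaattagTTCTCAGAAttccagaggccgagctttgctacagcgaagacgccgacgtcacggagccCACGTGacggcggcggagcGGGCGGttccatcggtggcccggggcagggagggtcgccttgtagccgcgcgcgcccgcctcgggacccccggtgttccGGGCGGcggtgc
Zbtb4: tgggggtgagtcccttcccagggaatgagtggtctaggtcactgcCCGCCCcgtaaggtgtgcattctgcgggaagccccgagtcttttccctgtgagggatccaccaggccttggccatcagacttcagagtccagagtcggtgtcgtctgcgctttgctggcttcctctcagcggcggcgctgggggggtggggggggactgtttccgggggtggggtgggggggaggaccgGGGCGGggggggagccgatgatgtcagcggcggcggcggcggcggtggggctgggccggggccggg
Zbtb45: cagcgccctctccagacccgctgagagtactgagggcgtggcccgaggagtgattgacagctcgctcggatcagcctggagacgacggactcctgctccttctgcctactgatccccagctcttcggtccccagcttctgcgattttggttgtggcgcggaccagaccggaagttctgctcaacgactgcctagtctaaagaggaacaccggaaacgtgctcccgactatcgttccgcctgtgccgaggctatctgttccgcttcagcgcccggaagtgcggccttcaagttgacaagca
Zbtb2: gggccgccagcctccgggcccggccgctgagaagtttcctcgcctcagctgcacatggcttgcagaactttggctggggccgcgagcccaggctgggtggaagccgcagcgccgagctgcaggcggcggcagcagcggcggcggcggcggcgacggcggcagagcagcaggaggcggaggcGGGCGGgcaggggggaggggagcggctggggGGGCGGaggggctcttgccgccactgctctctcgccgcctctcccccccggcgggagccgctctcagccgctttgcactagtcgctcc
In the Bcl6 window the GC boxes begin at -41 and 38 relative to the start, the E-box at -60 and the palindrome, TTCTCAGAA, at -118. The Zbtb4 window has GC boxes at -205 and -16, and the Zbtb2 window at -69 and -38. The Zbtb45 window holds none of these motifs, although Zbtb45 and Zbtb2 were both lower.

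The GC box was the most frequent of the motifs searched. It stood in 27 of 38 windows (71.1%), 7 of 9 among higher and 11 of 18 among lower genes, against 62.9% of 11536 windows of tested genes and 35.9% of all 27025 windows. The E-box, the sequence MYC and MAX bind, stood in 6 of 38 windows (15.8%), against 9.92% for tested genes and 7.24% for all. TTCNNNGAA, a core of BCL6 sites, stood in 2 windows (5.26%, against 6.78% and 8.47%), and the Kaiso-type sequence TCCTGCNA in 1 (2.63%, against 4.64% and 4.91%). CCAAT stood in 13 (34.2%, against 38.5% and 37.9%). The windows were rich in CpG, with a median of 25 CpG dinucleotides and 65% G and C, against 20 and 60.7% for tested genes and 7 and 52.7% for all windows. Higher genes had a median of 22 CpG, lower genes 25.5 and genes without a call 27.5. Some windows lie far from the GENCODE start: Zbtb20 by 371403 bases, Zbtb46 by 35038, Zbtb38 by 21156, Zbtb12 by 15076 and Zbtb6 by 12252. For the BTB zinc finger genes the window nearest the GENCODE start was taken, and for the comparison the first listed window of each gene. The shares therefore rest on unlike choices of window. These matches describe the letters of the windows and carry no measure of binding.

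Among the genes that set lymphoid and myeloid fates, 4 of 7 tested were higher and 2 lower, against 31.2% and 32.4% over all genes. Bcl6 (chromosome 16, 23965052 to 23988852, minus strand, mm10 as for all coordinates here), which encodes the repressor behind germinal centre B cells and follicular helper T cells, rose more than any other gene of the 43. Its levels were 4.57, 4.49, 4.32 and 4.74 log2 CPM in panobinostat tumours, against 2.30, 1.64, 1.30 and 1.58 in vehicle tumours. The groups stood far apart, with a gap wider than the spread inside either. In reads these were 418 to 530 per panobinostat library and 55 to 111 per vehicle library. The log2 change was 2.82 (SE 0.23, adjusted p = 1.28e-05), a 7.08-fold difference.

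Bcl6b, the closest relative of Bcl6, rose less and with wider spread. It stood at 4.75, 3.86, 4.29 and 3.60 log2 CPM with panobinostat and at 3.60, 2.71, 2.49 and 2.74 with vehicle. The lowest panobinostat value met the highest vehicle value, that of vehicle tumour 1. The log2 change was 1.24 (SE 0.31, adjusted p = 0.00631), and it missed the threshold in the test against a 1.5-fold change (adjusted p = 0.0896). Endothelial markers, where Bcl6b is known to be expressed, summed to 315 to 492 CPM with panobinostat and 92.1 to 490.5 CPM with vehicle. Of those 8 markers, 2 (Tek and Vwf) were higher, and vehicle tumour 1 again had the highest vehicle sum.

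Per length of annotated exon, Bcl6 minus Bcl6b lay between -1.03 and 0.28 log2 units in panobinostat tumours and between -2.15 and -1.92 in vehicle tumours. Per length, the paralogs were thus nearer to one another with panobinostat in every library.

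Zbtb7b (chromosome 3, 89377644 to 89394776) encodes ThPOK, the factor that commits thymocytes to the CD4 lineage. Its levels were 5.38, 5.42, 5.43 and 5.32 log2 CPM with panobinostat, against 3.56, 2.48, 2.53 and 2.86 with vehicle. The panobinostat tumours were nearly alike, while vehicle tumour 1 stood above its group. The log2 change was 2.53 (SE 0.23, adjusted p = 2.11e-05), a 5.78-fold difference. Runx3, the CD8 lineage factor that ThPOK opposes, was higher too, by 1.46 (SE 0.25, adjusted p = 7.26e-04).

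T cell genes were scarce in these libraries. Cd3e, a T cell receptor subunit, held 3 to 23 reads per panobinostat library and 2 to 54 per vehicle library. Vehicle tumour 1 had the highest count. Cd4, a T helper cell gene that some myeloid cells share, was higher (log2 change 1.77, adjusted p = 0.00481), and the T cell kinase gene Lck was lower (-1.31). Lck did not follow Cd3e: in vehicle tumours 2 to 4 it held 108 to 124 reads, against 2 to 5 for Cd3e.

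Zbtb46 (chromosome 2, 181387762 to 181459426) marks classical dendritic cells among myeloid cells and is also made in endothelium. It stood at 5.31, 5.26, 5.08 and 5.17 log2 CPM with panobinostat, against 2.98, 2.54, 3.53 and 3.15 with vehicle. Every panobinostat tumour lay above every vehicle tumour. The log2 change was 2.15 (SE 0.20, adjusted p = 2.53e-05), a 4.45-fold difference. Among the other dendritic cell markers 1 of 3 tested was higher, Itgax, an integrin gene that macrophages share (2.48). Flt3 (0.18) and Siglech (adjusted p = 0.0516) had no call, and Xcr1 and Clec9a, markers of cross-presenting dendritic cells, held 8 to 12 and 10 to 22 reads with panobinostat and 10 to 18 and 1 to 31 with vehicle. Summed without Zbtb46, these markers were at 43.7 to 56.2 CPM with panobinostat and 7.49 to 18.2 CPM with vehicle. Itgax alone made up 85.0 to 92.8% of that sum with panobinostat and 63.8 to 77.6% with vehicle.

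**Figure D2:**
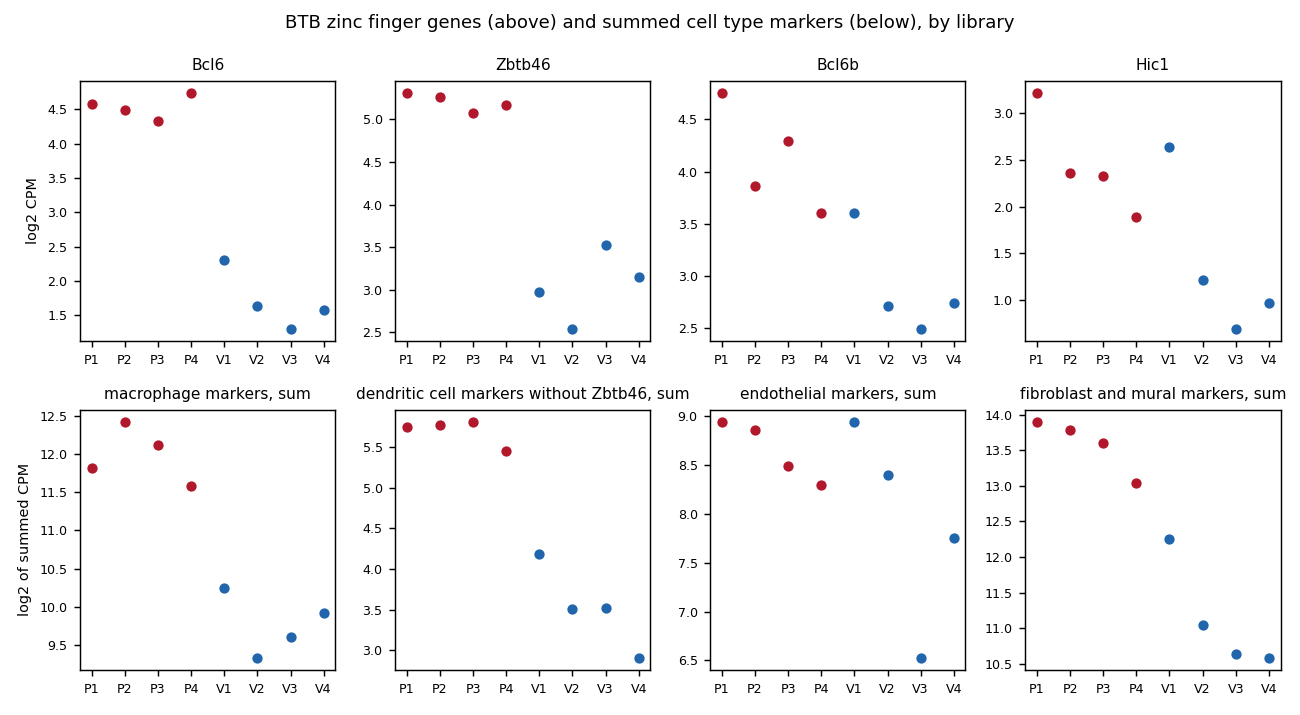
Log2 CPM of Bcl6, Zbtb46, Bcl6b and Hic1 (upper row) and log2 of the summed CPM of macrophage, dendritic cell (without Zbtb46), endothelial, and fibroblast and mural markers (lower row) in each library, with P1 to P4 the panobinostat and V1 to V4 the vehicle tumours. Bcl6 and Zbtb46 separate the groups, as do the macrophage, dendritic cell and fibroblast sums. Bcl6b and Hic1 overlap at V1, and the endothelial sum at V1 and V2. Itgax makes up at least 63.8% of the dendritic cell sum in each library.

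Zbtb16 encodes PLZF, the factor of natural killer T cells and spermatogonial stem cells, and a fusion partner in acute promyelocytic leukaemia. Its levels were 3.98, 3.15, 3.38 and 3.66 log2 CPM with panobinostat, against 4.73, 5.24, 2.79 and 3.57 with vehicle. The vehicle tumours differed among themselves by more than the groups did. The change had no call (-0.54, SE 0.48, adjusted p = 0.349, 95% interval -1.63 to 0.55).

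Zbtb1 and Zbtb25, which lymphocytes need or use during development and activation, were lower by 0.65 and 0.81 on the log2 scale. They are divergent neighbours on chromosome 12 whose annotated ends lie 663 bp apart. The call of Zbtb1 (adjusted p = 0.0162) was lost when libraries were scaled to read totals (-0.53, adjusted p = 0.0541). It was also lost without panobinostat tumours 3 and 4, where the change was -0.59 over 2 against 4 libraries (adjusted p = 0.109).

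Of the genes tied to growth control, p53 and MYC, 4 of 6 were lower and 1 higher, against 32.4% and 31.2% over all genes. Zbtb17 (chromosome 4, 141444654 to 141467930), encoding MIZ1, stood at 4.95, 4.66, 4.61 and 4.66 log2 CPM with panobinostat, against 5.62, 5.95, 5.63 and 6.05 with vehicle. The groups did not overlap, and the log2 change was -1.09 (SE 0.14, adjusted p = 1.23e-04). Its partner Mycn stood at 6.24, 6.48, 6.89 and 6.74 log2 CPM with panobinostat and at 7.06, 7.48, 7.34 and 7.92 with vehicle, a change of -0.86 (SE 0.20, adjusted p = 0.00408). The Mycn count covers the mouse gene, and how reads of the human transgene were assigned is not given in the sources used here. Max was higher (0.38) and Myc had no call (0.32, adjusted p = 0.268). Ctnnd1, which encodes the Kaiso partner p120 catenin, was higher by 0.50.

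Genes that MIZ1 is known to activate, or to repress with MYC, were taken as a list of 5, of which 4 were higher and 1 lower with a median of 0.85, against 31.2% higher, 32.4% lower and a median of -0.02 over all genes tested. Cdkn1a, the p21 cell cycle inhibitor, was higher by 1.26 (adjusted p = 7.07e-05), and Cdkn2b, the p15 inhibitor, by 2.51 (adjusted p = 0.00111). Cdkn2b held 7 to 30 reads per vehicle library and passed the filter through its panobinostat libraries. Its place among the higher genes was thus partly fixed by the filter. Ambra1, an autophagy gene, was lower by 0.51 (adjusted p = 0.00373).

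Zbtb2, a repressor reported in the p53 pathway, had 3.22, 2.94, 2.98 and 2.88 log2 CPM with panobinostat and 4.31, 4.52, 4.10 and 4.59 with vehicle. Zbtb14, first described as a repressor at the Myc promoter, had 4.14, 4.01, 4.08 and 3.93 log2 CPM with panobinostat and 5.36, 5.36, 5.11 and 5.37 with vehicle. Both pairs of groups were well apart, with log2 changes of -1.37 (SE 0.16, adjusted p = 7.71e-05) for Zbtb2 and -1.26 (SE 0.11, adjusted p = 2.01e-05) for Zbtb14. Zbtb5, another repressor reported at Cdkn1a, was lower by 0.64 on the log2 scale, and 13.0% of its exon bases overlap the opposite-strand gene 1700055D18Rik.

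Zbtb7a, the proto-oncogene also called LRF that silences fetal globin, went the other way. It had 5.76, 5.72, 5.73 and 5.64 log2 CPM with panobinostat and 5.28, 5.43, 4.90 and 5.23 with vehicle. The separation was narrow, with a log2 change of 0.50 (SE 0.12, adjusted p = 0.00551). Its paralog Zbtb7c had no call (0.42, adjusted p = 0.117). Per length, Zbtb7b minus Zbtb7a was -0.10 to -0.01 log2 units in panobinostat tumours and -2.67 to -1.44 in vehicle tumours. The close relatives therefore stood at nearly equal levels per length with panobinostat.

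Hic1, a p53-induced tumour suppressor that is also active in mesenchymal progenitors, had 3.21, 2.35, 2.32 and 1.89 log2 CPM with panobinostat and 2.63, 1.22, 0.69 and 0.97 with vehicle. Vehicle tumour 1 exceeded 3 of the 4 panobinostat tumours. The log2 change of 1.06 (SE 0.45) had no call (adjusted p = 0.0620), and without vehicle tumour 1 it was 1.48 with a call (adjusted p = 0.00391). That tumour also had the highest fibroblast and mural sum of its group, 4900 CPM against 1529 to 2113 CPM in the other three.

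Among 7 known targets of HIC1 repression 5 were higher and 2 lower, with a median of 1.14. Ccnd1, encoding cyclin D1, was lower by 2.36 (adjusted p = 6.39e-06), Epha2, an ephrin receptor, was higher by 1.60 (adjusted p = 6.22e-05), and Cdkn1a was higher as given above. Sirt1, the deacetylase gene that HIC1 represses, was lower by 1.00. A list of 13 genes known to be repressed by BCL6 had 9 higher and 3 lower, with a median of 1.26. Among them Ccl3 (3 to 14 reads with vehicle), Cd69 (2 to 27) and Cxcl10 (13 to 34) passed the filter through panobinostat libraries. Their place among the higher genes was partly fixed by the filter. Cdkn1a is 1 of the 9 and was also counted in the HIC1 and MIZ1 lists. Ccnd2, encoding cyclin D2, was higher by 2.85 (adjusted p = 4.95e-06), and Cd44, an adhesion receptor, by 2.13 (adjusted p = 1.37e-05). In the same list Trp53 was lower by 0.79 and Chek1, a checkpoint kinase, by 1.35. Over all genes tested the median change was -0.02 and 31.2% were higher, and what brought either list to its values was not tested.

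**Figure D3:**
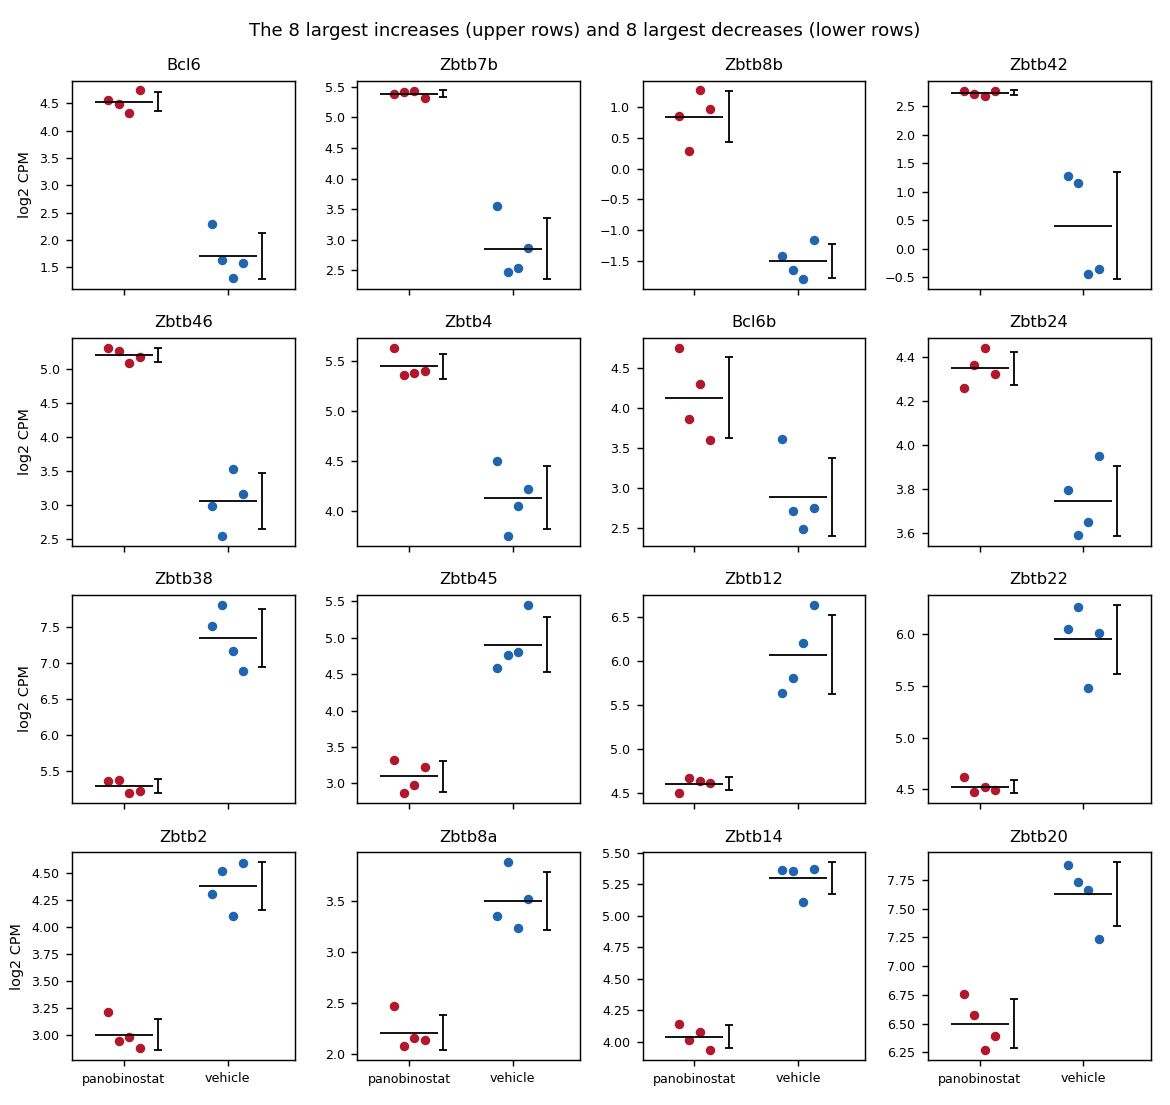
Log2 CPM of the 8 genes with the largest called increases (upper rows) and the 8 with the largest called decreases (lower rows), 1 point per library, with the mean as a line and the SD as a bar (n = 4 each). Scales differ between panels. Bcl6b overlaps where its groups meet at 3.60, and the other 15 genes separate panobinostat from vehicle tumours.

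The genes whose proteins bind methylated DNA divided by direction, with 2 higher and 2 lower of 4 when Zbtb24 is counted with them. The shares over all genes were 31.2% higher and 32.4% lower. Zbtb4 (chromosome 11, 69765912 to 69784023) had 5.63, 5.36, 5.38 and 5.40 log2 CPM with panobinostat and 4.50, 3.75, 4.05 and 4.22 with vehicle. Zbtb38, its relative (chromosome 9, 96682770 to 96752831), had 5.37, 5.37, 5.19 and 5.22 with panobinostat and 7.52, 7.81, 7.17 and 6.89 with vehicle. Neither gene overlapped between groups, and the log2 changes were 1.31 (SE 0.16, adjusted p = 1.20e-04) for Zbtb4 and -2.06 (SE 0.18, adjusted p = 1.89e-05) for Zbtb38. The decrease of Zbtb38 was the largest of the 43.

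Per length, their order was inverted between the groups. Zbtb4 minus Zbtb38 was 0.79, 0.51, 0.72 and 0.71 log2 units in panobinostat tumours, against -2.49, -3.53, -2.58 and -2.14 in vehicle tumours. Per length, Zbtb4 thus exceeded Zbtb38 in each panobinostat tumour and stood below it in each vehicle tumour. In log2 CPM, without the length term, the genes were close with panobinostat. Zbtb4 was higher in panobinostat tumours 1, 3 and 4, and in tumour 2 it was at 5.356 against 5.374 for Zbtb38. Annotated exon length was 8117 bases for Zbtb4 and 11733 for Zbtb38.

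Zbtb33, which encodes Kaiso, was lower by less, with 5.23, 5.26, 5.22 and 5.22 log2 CPM with panobinostat and 5.90, 5.86, 5.64 and 5.48 with vehicle. Its log2 change was -0.49 (SE 0.11, adjusted p = 0.00437), and without panobinostat tumours 3 and 4 the change was -0.47 with no call (adjusted p = 0.0508). Zbtb24, mutated in immunodeficiency, centromeric instability and facial anomalies syndrome, had 4.26, 4.36, 4.44 and 4.32 log2 CPM with panobinostat and 3.80, 3.59, 3.65 and 3.95 with vehicle. Its log2 change was 0.60 (SE 0.13, adjusted p = 0.00283). Cdca7, a gene that ZBTB24 activates, was lower by 1.07 (SE 0.16, adjusted p = 3.08e-04), opposite in direction to Zbtb24.

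Of the neural and developmental genes 3 of 5 were lower and 1 higher, against 32.4% and 31.2% over all genes. The higher gene was Zbtb42, which passed the filter through its panobinostat libraries. Zbtb20, needed for hippocampal neurons and liver, had 6.75, 6.58, 6.27 and 6.39 log2 CPM with panobinostat and 7.88, 7.74, 7.67 and 7.24 with vehicle. Zbtb45, linked to glial differentiation, had 3.32, 2.86, 2.98 and 3.22 with panobinostat and 4.59, 4.77, 4.80 and 5.45 with vehicle. Both were lower in every panobinostat tumour, with log2 changes of -1.13 (SE 0.16, adjusted p = 2.20e-04) for Zbtb20 and -1.81 (SE 0.21, adjusted p = 7.22e-05) for Zbtb45.

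Zbtb18, a repressor that cortical neurons need, had 5.69, 5.60, 5.70 and 5.76 log2 CPM with panobinostat and 5.65, 5.90, 5.37 and 5.36 with vehicle. The groups overlapped, and the change had no call (0.12, SE 0.13, adjusted p = 0.448, 95% interval -0.18 to 0.42). Hic2, a regulator of heart development and fetal globin, was lower by 0.71 (SE 0.15), and 48.6% of its exon bases overlap Gm26635 on the other strand.

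Zbtb42, a gene expressed in skeletal muscle, had 2.77, 2.71, 2.68 and 2.77 log2 CPM with panobinostat and 1.27, 1.16, -0.45 and -0.36 with vehicle. The vehicle tumours formed an upper pair, with 54 and 45 reads, and a lower pair with 16 reads each. The log2 change was 2.33 (SE 0.42, adjusted p = 0.00102). Skeletal muscle markers had no call for any of 6 tested, with sums from 104.8 to 7284 CPM with panobinostat and from 15.4 to 2485 CPM with vehicle.

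Zbtb10 and Zbtb48 bind telomere repeats. Zbtb10 was lower by 0.91 (SE 0.14, adjusted p = 3.69e-04), and Zbtb48, also called TZAP, had no call (0.37, adjusted p = 0.0562) although its panobinostat values, 4.55 to 4.66 log2 CPM, all lay above its vehicle values, 3.83 to 4.45.

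The remaining genes, whose roles are less settled, had 2 higher and 6 lower of 18. These shares, 11.1% and 33.3%, stand against 31.2% and 32.4% over all genes. Of the 2 higher genes, Zbtb8b passed the filter through its panobinostat libraries. Zbtb8b was close to silent with vehicle. It held 40, 23, 50 and 38 reads in panobinostat tumours and 8, 6, 6 and 9 in vehicle tumours. The levels were 0.86, 0.28, 1.27 and 0.97 log2 CPM with panobinostat and -1.41, -1.65, -1.79 and -1.16 with vehicle. Its log2 change was 2.35 (SE 0.31, adjusted p = 1.71e-04), and the size depended on the scale, at 1.06 with 1 CPM added and 1.41 with quantile normalization, still called in both.

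Zbtb8a, which lies 47648 bp from Zbtb8b on chromosome 4 and on the same strand, moved in the opposite direction. It had 2.47, 2.08, 2.16 and 2.14 log2 CPM with panobinostat and 3.35, 3.89, 3.24 and 3.52 with vehicle, a log2 change of -1.29 (SE 0.19, adjusted p = 3.66e-04). Zbtb8os, on the other strand, shares 264 exon bases with Zbtb8a and was lower by 0.58. Whether counting used strand is not given in the sources used here, so reads of overlapping genes cannot be told apart.

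Zbtb12 and Zbtb22 lie on chromosome 17 and were among the most abundant genes of the family per length. Zbtb12 had 4.49, 4.67, 4.63 and 4.61 log2 CPM with panobinostat and 5.64, 5.80, 6.20 and 6.64 with vehicle. Zbtb22 had 4.62, 4.47, 4.52 and 4.49 with panobinostat and 6.05, 6.26, 5.48 and 6.02 with vehicle. Both were lower in every panobinostat tumour, by 1.47 (SE 0.20, adjusted p = 2.02e-04) for Zbtb12 and 1.43 (SE 0.16, adjusted p = 6.68e-05) for Zbtb22 on the log2 scale. Their exon overlaps moved the other way: C2, a complement gene that overlaps Zbtb12 over 7.97% of its exon bases, was higher by 2.22, and Tapbp, an antigen presentation gene that overlaps Zbtb22 over 5.57%, by 1.94.

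Zbtb43 was higher by 0.56 (SE 0.10), and its neighbour Zbtb34, 18962 bp away, had no call (0.07). Zbtb21, Zbtb39 and Zbtb44 were lower by 0.79, 0.57 and 0.79. Without a call were Zbtb3 (-0.15), Zbtb6 (0.16), Zbtb11 (-0.24), Zbtb26 (-0.24), Zbtb37 (-0.08), Zbtb40 (-0.28), Zbtb41 (-0.46) and Zbtb49 (0.29). Zbtb49 separated the groups without a call (adjusted p = 0.0678). Zbtb6 and Zbtb26 share 449 exon bases on 1 strand, and 15.6% of the exon bases of Zbtb37 overlap Serpinc1 on the other strand. In Zbtb41, vehicle tumour 4 stood at 5.48 log2 CPM, against 6.34 to 6.51 in the other vehicle tumours and 5.68 to 5.79 with panobinostat, and without that tumour its change was -0.70 with a call (adjusted p = 1.27e-04). With that tumour kept at full weight, Zbtb41 was called with median centring (-0.58, adjusted p = 0.0394). It was also called with library weights (-0.69, adjusted p = 5.86e-04). There vehicle tumour 4 had the lowest weight, 0.204, so that fit came close to leaving it out.

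Of 5 further BTB zinc finger genes whose symbols fall outside the naming rule, 1 was higher and 1 lower. The shares over all genes were 31.2% and 32.4%. Patz1, a regulator of stem cells and thymocytes, was lower by 1.75 (adjusted p = 2.38e-05), Gzf1, a factor of GDNF-induced growth, was higher by 0.66 (adjusted p = 1.14e-04), and Zfp131 had no call (-0.36, adjusted p = 0.112).

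The listed corepressors and ubiquitin ligase subunits tied to BTB proteins were mostly lower. Of 23 genes 16 were lower and 1 higher, with a median of -0.61, against 32.4% lower, 31.2% higher and a median of -0.02 over all genes tested. Over the alternatives 13 to 17 were lower and 1 to 4 higher, except in the test against a 1.5-fold change, with 6 lower and 0 higher. Bcor, the corepressor named for its binding to BCL6, had 6.03, 6.07, 6.02 and 6.06 log2 CPM with panobinostat and 7.33, 7.73, 7.23 and 7.38 with vehicle, a log2 change of -1.37 (SE 0.11, adjusted p = 1.38e-05). Ctbp1, a corepressor that HIC1 recruits, was lower by 1.40 (SE 0.12, adjusted p = 1.57e-05), and Tbl1x, a subunit of the NCoR complex, by 0.77 (SE 0.08, adjusted p = 3.20e-05). Ncor1 was lower by 0.57, while Hdac3, the deacetylase of that complex, had no call (-0.13, adjusted p = 0.271). The gene that was higher was Bcorl1, a relative of Bcor, by 1.05. The relation of these changes to those of the transcription factors was not tested.

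Levels of the family were compared per length of annotated exon. Zbtb11, Zbtb12 and Zbtb22 held the top 3 ranks of 44 in both groups, in that order. Zbtb11 stood at 5.33 log2 CPM per kb with panobinostat and 5.56 with vehicle. Zbtb38 ranked 26 with panobinostat and 5 with vehicle, and Zbtb45 ranked 30 with panobinostat and 14 with vehicle. In the other direction, Zbtb7b ranked 8 with panobinostat and 37 with vehicle, Bcl6 ranked 25 with panobinostat and 40 with vehicle, and Zbtb46 ranked 20 with panobinostat and 38 with vehicle. Summed over the 44 genes, the family held 1414, 1352, 1315 and 1336 CPM in panobinostat tumours, against 1866, 1987, 1705 and 1783 in vehicle tumours. Zbtb11 alone made up 21.4 to 22.8% of this sum with panobinostat and 16.9 to 23.9% with vehicle.

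**Figure D4:**
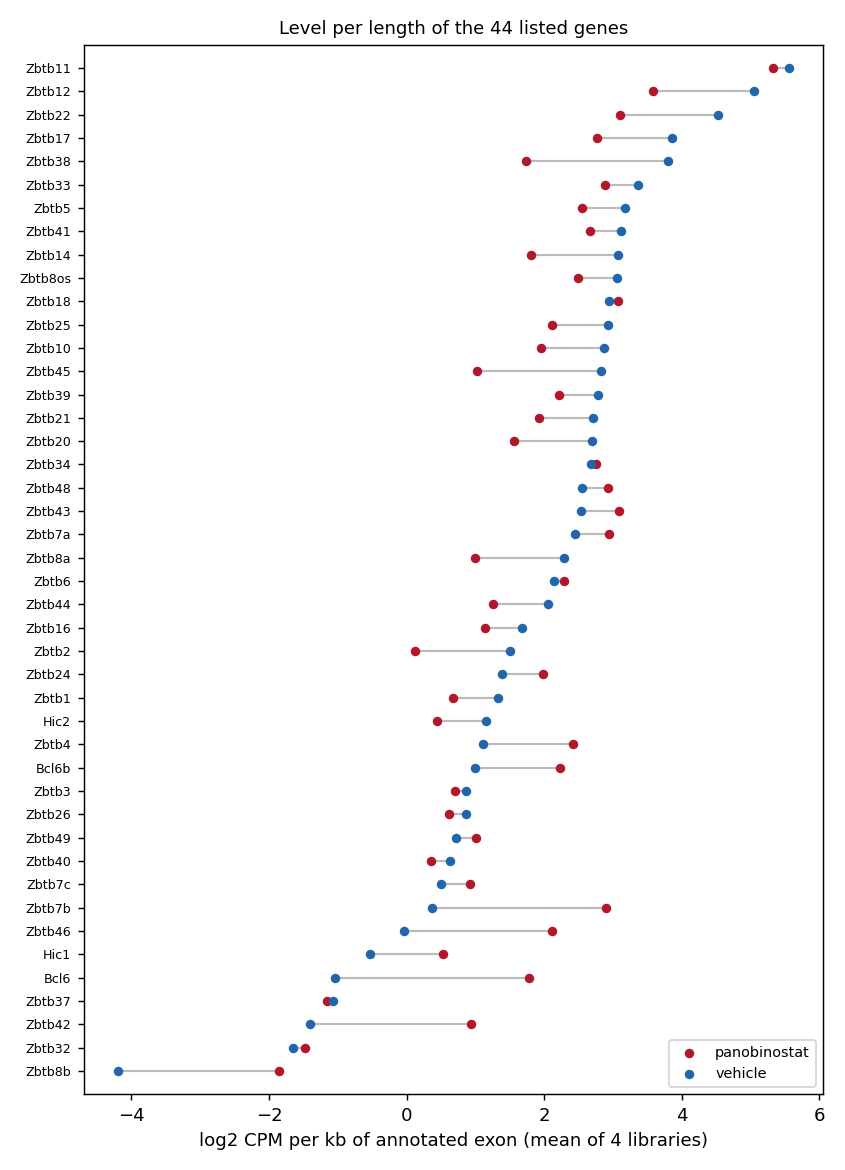
Mean level per length of the 44 genes in log2 CPM per kb of annotated exon, with panobinostat and vehicle means (n = 4 each) joined by a line and genes ordered by the vehicle mean. Zbtb11 is at the top in both groups, at 5.33 with panobinostat and 5.56 with vehicle. The longest lines belong to Bcl6 and Zbtb7b, followed by Zbtb8b, Zbtb42, Zbtb46 and Zbtb38.

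For these genes the panobinostat tumours were also more alike than the vehicle tumours. The SD among vehicle tumours exceeded that among panobinostat tumours in 40 of the 43 genes (93.0%), against 81.7% of all genes tested. Median SDs were 0.10 with panobinostat and 0.28 with vehicle for the family, and 0.16 with panobinostat and 0.30 with vehicle for all genes. Bcl6b, Zbtb8b and Zbtb43 were the exceptions. Zbtb16, Zbtb42 and Hic1 had the widest vehicle spread, with SDs of 1.11, 0.94 and 0.86 log2 CPM.

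**Figure D5:**
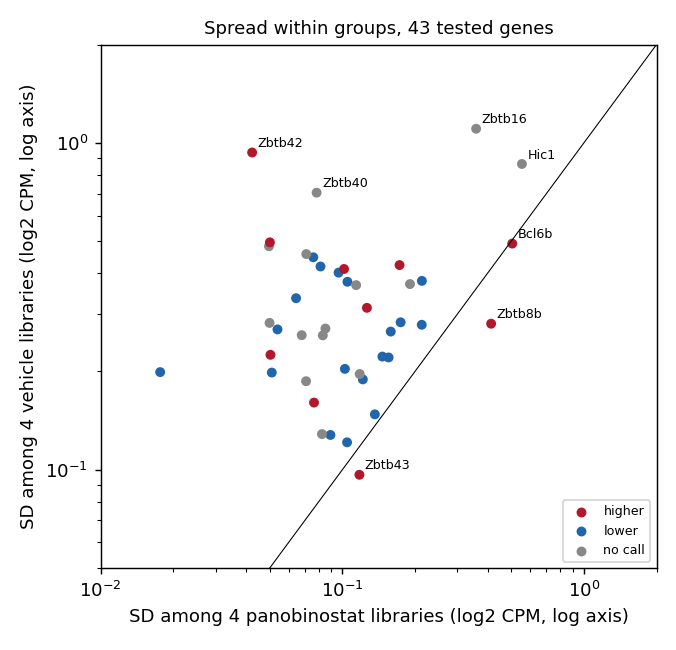
SD of log2 CPM among the 4 panobinostat tumours (x axis) and the 4 vehicle tumours (y axis) for each of the 43 tested genes, on log axes, with the line of equal SD. Points above the line, 40 of 43, had the wider spread with vehicle, and Bcl6b, Zbtb8b and Zbtb43 lie below it.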

How the data were processed

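The authors deposited 1 log2 value per gene and library. Their form is that of limma's voom: log2 CPM from counts plus 0.5 over an effective library size. Inverting this returned whole reads for 100% of the values (tolerance 0.001 read). Per the submitters' processing notes, CASAVA 1.8.2, TopHat2, HTSeq, limma and the build mm10 were used. The sources used here give neither the role of each nor the annotation, filter, normalization or strand use.

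Symbols and coordinates came from GENCODE M21, matched by identifier (17236 of 17488 matched), and start windows from RefSeq. The 16157 genes that reached 1 CPM in 4 or more of 8 libraries entered a two-sided limma fit (version 3.58.1, R 4.3.3; lmFit and trended eBayes) of 4 panobinostat against 4 vehicle libraries, with no covariate. Benjamini-Hochberg adjustment ran over these genes, with a threshold of 0.05. Adjusted p-values in the text are from this fit. Library sizes the authors used were 1.00 to 1.03 times the read totals with panobinostat and 0.888 to 0.977 times with vehicle. The fit was tested on simulated data.

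The genes and lists were chosen with earlier results of these data known. Values in every library are given for the 8 largest called increases and decreases and for Bcl6, Zbtb16, Zbtb17, Zbtb7a, Hic1, Zbtb33, Zbtb18, Zbtb20 and Zbtb46, and the 3 smallest adjusted p-values of each pathway list are named, except a gene that is not reported here. Genes named beyond this rule were chosen after their values were seen. Animals are the replicates, and their numbers pair nothing. Alternatives were another filter or none, no trend, robust variance, library weights, voom weights, 3 scalings, an added 1 CPM, a stricter threshold, a test against a 1.5-fold change, and libraries left out.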

Additional observations from a re-analysis of the deposited data

Results flagged for a closer look

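Of 88 groups of 4 values examined, 5 (5.68%) held a library far from the rest by Dixon's criterion, and chance flags about 1 in 20 groups. Zbtb17 in panobinostat tumour 1 stood at 4.95 log2 CPM, with the nearest other value at 4.66. Zbtb4 in panobinostat tumour 1 stood at 5.63, with the nearest at 5.40. Hic2 in vehicle tumour 2 stood at 4.10, with the nearest at 3.74, Zbtb14 in vehicle tumour 3 at 5.11, with the nearest at 5.36, and Zbtb41 in vehicle tumour 4 at 5.47, with the nearest at 6.34.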

How the results depend on the processing

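Over 21 alternatives, 9 to 13 genes were higher and 17 to 22 lower, except for the test against a 1.5-fold change, with 6 higher and 9 lower. Leaving out each library in turn gave 10 to 12 higher and 19 to 20 lower. Of the 29 called genes 14 kept direction and call in every one, and Zbtb8b did in those that tested it, all but the filter of 5 CPM. Called changes that moved by over 1.5 times were those of Zbtb8b (1.06 with 1 CPM added, 1.41 with quantile normalization), Zbtb24 (0.38 with quantile normalization) and Hic2 (-1.07 with quantile normalization). Changes near 0 turned sign. With library weights Zbtb18 was at -0.041, Zbtb34 at -0.015, Zbtb40 at 0.19 and Zbtb6 at -0.080. With quantile normalization Zbtb11 was at 0.11 and Zbtb7c at -0.053. With median centring Zbtb34 was at -0.048, and with scaling to read totals Zbtb37 was at 0.041. Without 1 library each, Zbtb34 ranged from -0.026 to 0.12, Zbtb37 from -0.23 to 0.066 and Zbtb6 from -0.066 to 0.28. The cause was not tested. Scaling moved the median of all genes by -0.117 (median centring), 0.119 (read totals) and -0.100 (quantile).

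Among the 14 genes without a call, several gained one. Quantile normalization gave calls to Zbtb3 (-0.71), Zbtb26 (-0.50) and Zbtb37 (-0.52), median centring to Zbtb11 (-0.36), and leaving out vehicle tumour 2 to Zbtb7c (0.57, adjusted p = 0.0419). Zbtb48 was called with read totals (0.49) and without vehicle tumour 2 (0.44) or 4 (0.43), and Zbtb49 with read totals (0.41), library weights (0.27) or no variance trend (0.29). Hic1 was called when libraries were scaled to read totals (1.18, adjusted p = 0.0477), and its adjusted p ranged from 0.00391 to 0.354. Zbtb16 was called with library weights (-1.24, adjusted p = 0.0127, range 0.0127 to 0.951). Those weights were 0.348 and 0.204 for vehicle tumours 3 and 4, which had the lower Zbtb16 values of their group. Vehicle tumours 1 and 2 had weights of 0.73 and 1.56. No paired analysis was possible because the replicate numbers only name the animals. Corepressors called higher numbered 3 without vehicle tumour 4, 3 with library weights, 4 with quantile normalization (13 lower), 4 with read totals, and 0 (6 lower) in the 1.5-fold test, against 1. Depth limits Zbtb8b and Zbtb32, which held 50 reads or fewer per library. It also limits Zbtb42, with 16 reads in each of vehicle tumours 3 and 4, and Hic1, with 36 to 47 reads in vehicle tumours 2 to 4.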
